A study of Arabidopsis thaliana with 48 samples.

Results

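The genes described here are those of the chloroplast genome of Arabidopsis thaliana, chosen as the locus identifiers that start with ATCG and reach an FPKM of at least 1 in at least 3 of the 48 libraries. FPKM counts sequenced fragments relative to transcript length and to library size, so levels are per length. Of 133 such identifiers, 72 met the rule, out of 21322 genes that met the same threshold among 32824 in the tables. RNA was sequenced from pooled whole seedlings of the Col-0 wild type (WT) and the line rap2.3, which carries a T-DNA insertion in RAP2.3, an ethylene response factor of group VII. The seedlings were 6 days old and were grown on plates in 3 biological repeats per group. Control plates (CT) had a light level of 50 µmol m-2 s-1 at 21 °C. Excess light (EL) was 700 µmol m-2 s-1 and heat (HS) was 33 °C, each for 1.5 h, and salt (S) was 50 mM NaCl in the medium throughout growth. With S+EL+HS and the 3 pairwise combinations (S+HS, S+EL, EL+HS) this gave 8 treatments of each genotype and 16 groups. The mutant material is 1 insertion line, and how messenger RNA was selected from total RNA is not stated in the sources used here.

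The chloroplast genome encodes part of both photosystems, of the cytochrome b6f complex, of the ATP synthase and of the NDH complex, the large subunit of Rubisco, and much of the organelle's own machinery for making RNA and protein. It is read by a bacterial-type RNA polymerase (PEP), whose core subunits are encoded by rpoA, rpoB, rpoC1 and rpoC2 in the chloroplast and which is directed to promoters by sigma factors encoded in the nucleus, and by phage-type polymerases encoded in the nucleus (NEP). Genes of the photosystems and Rubisco are known mainly as PEP genes, the rpoB operon and accD as NEP genes, and many others have promoters of both kinds. Chloroplast transcripts are mostly without a stable poly(A) tail, and a tail marks them for degradation.

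The transcript of RAP2.3 itself was higher, not lower, in the libraries of the insertion line: it was between 34.9 and 86.1 FPKM (median 59.6) over the 24 WT libraries and between 206 and 602 FPKM (median 380) over the 24 labelled rap2.3. The lowest library labelled rap2.3 was above the highest WT library at all 8 treatments. Which part of the transcript these fragments cover relative to the insertion is not given, so the labels are used as given and every direction below is between libraries labelled rap2.3 and libraries labelled WT. Each genotype was also deposited as a table of its own, and the genotype and the table cannot be told apart. As recovered from the steps of the FPKM values and rounded, the libraries held between 19400000 and 44000000 fragments, with a median of 24000000. Marker genes of green tissue summed to between 45702 and 85151 FPKM per library, over 15 nuclear genes of photosynthesis. In such bulk samples, fewer cells of a type and less RNA per cell cannot be told apart.

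Chloroplast transcripts were a small share of these libraries: the 37 members above 0 in every library summed to between 0.0313% and 0.296% of all FPKM. Of the other members, 20 were listed at 0 in 1 to 23 libraries and 15 in at least 24. By polymerase, 13 of the 72 members were taken as PEP genes, 15 as genes of both polymerases, 6 as NEP genes, and 38 had no class assigned. The 4 genes of the 16S and 23S ribosomal RNA in the inverted repeat had the highest medians over the 48 libraries, and since the copies share their sequence their split is arbitrary. The median was 87.0 FPKM for rrn16S.1 (ATCG00920) and 89.4 FPKM for rrn23S.1 (ATCG00950). The highest protein-coding median was that of psbA (ATCG00020), the D1 protein of photosystem II, at 46.0 FPKM, followed by rbcL (ATCG00490), the large subunit of Rubisco, at 15.6 FPKM. The ribosomal protein gene rpl16 (ATCG00790) was at 10.7 FPKM and atpB (ATCG00480), a subunit of the ATP synthase, at 8.69 FPKM. The order among neighbours in this middle range was not resolved, since their libraries overlapped. A median of at least 5 FPKM was reached by 16 members, and 32 had a median under 1 FPKM. The depth behind these levels was uneven: psbA rested on 248 to 4515 fragments per library with a median of 814, and atpA (ATCG00120) on 38 to 348 with a median of 99.

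**Figure D1:**
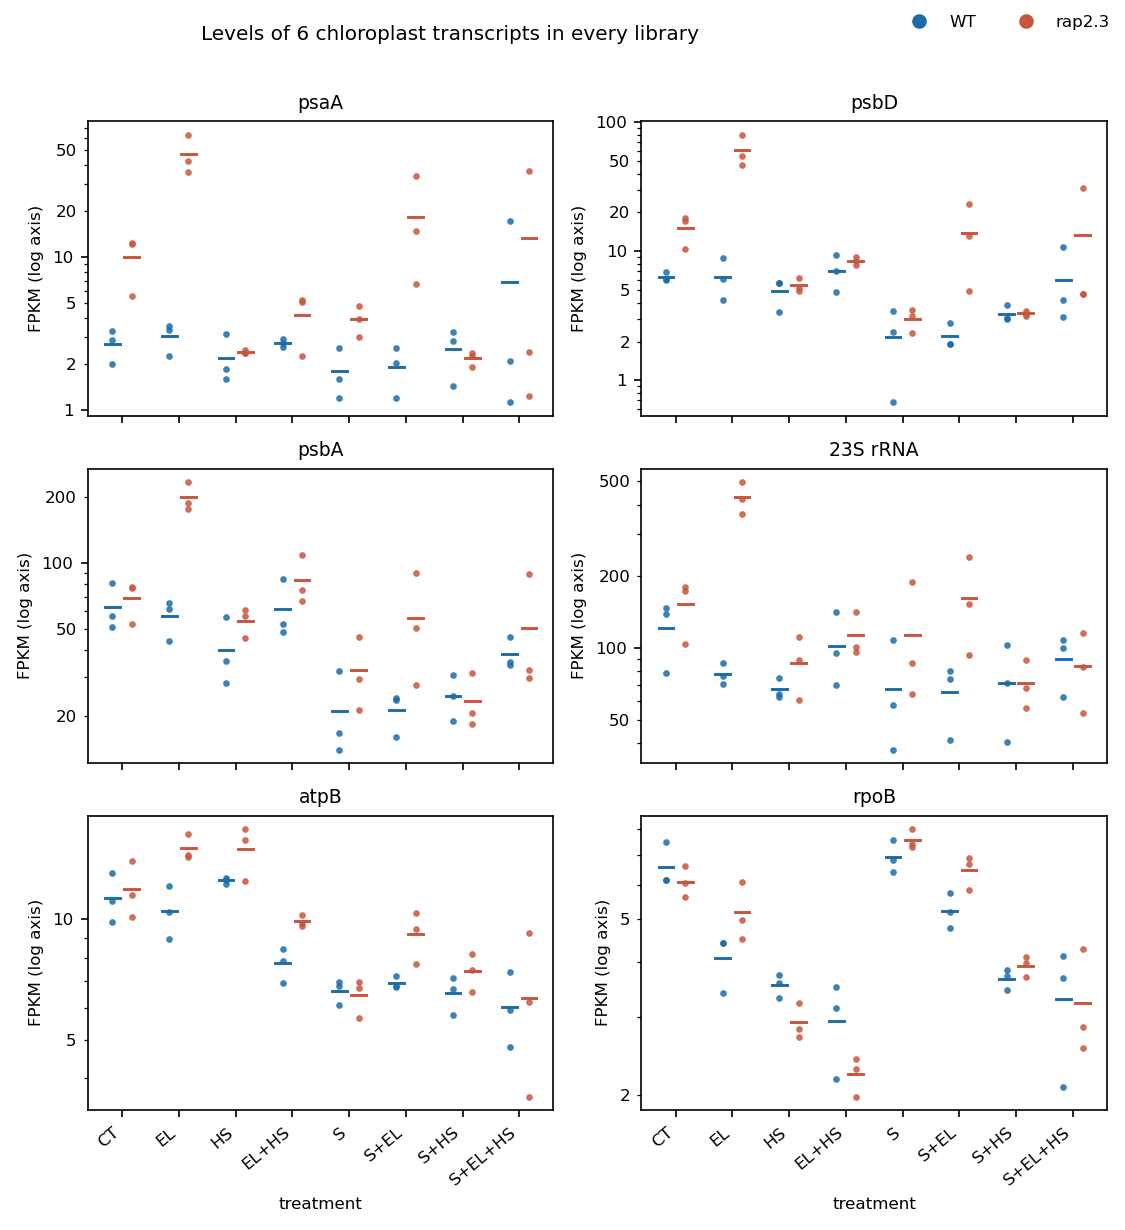
FPKM on log axes of 6 chloroplast transcripts (psaA, psbD, psbA, 23S rRNA, atpB and rpoB, 1 panel each) by treatment, with 1 point per library, WT in blue, rap2.3 in red, and a bar at the mean of 3 libraries. In psaA, psbD, psbA and 23S rRNA the 3 rap2.3 EL libraries lie above all WT EL libraries, and rpoB is lower at HS than at CT in both genotypes.

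Several members of known interest were outside the range of these libraries. The gene psbN (ATCG00700), the textbook target of the sigma factor SIG3 named in the title of the series, was listed at 0 in all 48 libraries and is not a member. The very long gene ycf2 reached at most 1.41 FPKM and is not a member either. Among the members mostly listed at 0, psaJ was above 0 in 3 libraries, at 299 to 313 FPKM, rrn5S.2 in 3 libraries, at 662 to 1861 FPKM, psbK in 5 libraries, at 29.5 to 110 FPKM, and rpl33 in 10 libraries, at 17.8 to 134 FPKM. In such short genes a few fragments or none decide between 0 and a high value, and an exact 0 in an FPKM table can be a failed estimate. Calls for the 15 members at 0 in at least 24 libraries are in the counts below and are named beside them.

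Libraries of one group differed widely for these genes. Over the 37 members above 0 everywhere, the median standard deviation among 3 replicates was 19.2% of the mean in WT HS, the lowest of the 16 groups, and 60% in rap2.3 S+EL+HS, the highest. By class, the median over the 16 groups was 29.9% for the 9 PEP genes, 29.6% for the 10 genes of both polymerases and 23.4% for the 4 NEP genes. The steadiest genes were rpoB (ATCG00190), the beta subunit of PEP, at 9.40%, and atpB at 10.8%. The most variable was ndhA (ATCG01100), a subunit of the NDH complex, at 60.1%. By operon, rpoB-rpoC1-rpoC2 had a median of 16.9% over its 3 genes, the rRNA operon 29.7% over 4 gene copies, and psbB-psbT-psbH-petB-petD 34.8% over 3 genes.

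Part of that spread came as whole libraries. In rap2.3 S+EL+HS, replicate 2 was the highest of its group for 30 of 37 members, with a median of 0.85 on the log2(FPKM + 1) scale above the mean of the other replicates. In rap2.3 S+EL, replicate 3 was highest for 30 of 37 members, with a median of 0.84. In WT S+EL+HS, replicate 2 was highest for 24 of 37 members, with a median of 0.41, and in WT S, replicate 3 was highest for 26 of 37, with a median of 0.46. Counts that use the first 3 of these libraries are given without them too, here or in the closing section. That set was chosen after the data were seen. It keeps WT S replicate 3, although its median was above that of WT S+EL+HS replicate 2. In psaA the 3 libraries deviated by 3.76, 1.65 and 2.83, and WT S replicate 3 by 0.57. In 8 of the 16 groups, the library with the highest sum of chloroplast genes was also that with the highest sum of 15 mitochondrial genes. With 3 libraries per group, 1 in 3 groups would match without any link, so the count alone does not show one. The part of this in the results was not tested.

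Members were called between genotypes at EL and at none of the other 7 treatments. The 37 members summed to 441, 489 and 567 FPKM in the 3 WT EL libraries and to 2331, 1839 and 2207 FPKM in the 3 libraries of rap2.3 EL. These groups did not overlap, and the rap2.3 EL sums were above those of every other library of the series. Under CT the sums were 764, 800 and 494 FPKM in WT and 603, 966 and 993 FPKM in rap2.3, which overlapped. The 9 PEP genes summed to 111 ± 19.3 FPKM in WT EL and 470 ± 93.8 FPKM in rap2.3 EL (SD, n = 3 each). The sum of 4 ribosomal RNA gene copies was 301 ± 36 FPKM in WT EL and 1526 ± 260 FPKM in rap2.3 EL. The 4 NEP genes in this sum gave a smaller contrast, 6.8 ± 1.3 FPKM in WT EL and 11.8 ± 0.4 FPKM in rap2.3 EL. They are rpoB, rpoC1 and rpoC2 of a single operon and ycf1.2, which passes the filter only through rap2.3 EL. The NEP genes accD and ycf1.1, at 0 in some libraries, are not in it.

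**Figure D2:**
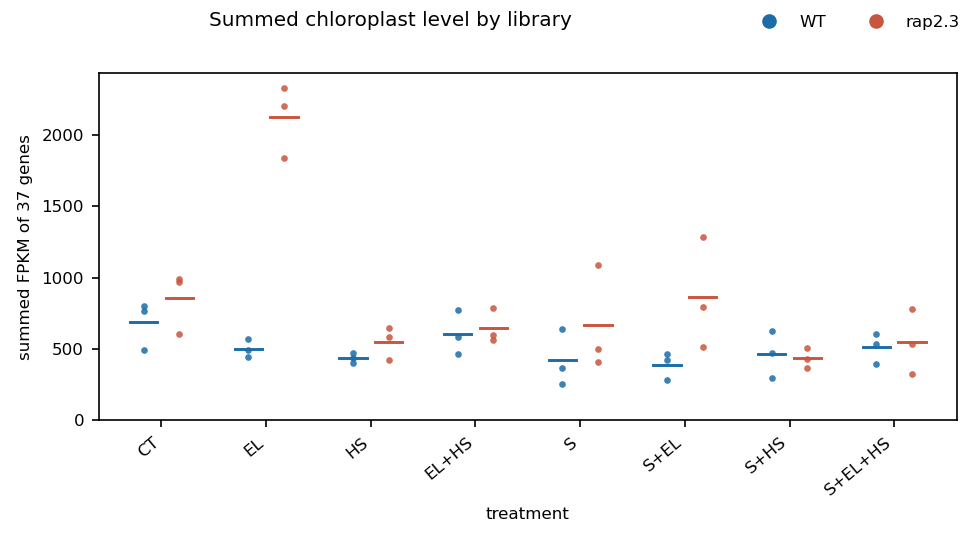
Summed FPKM of the 37 chloroplast genes above 0 in every library, by treatment, with 1 point per library, WT in blue and rap2.3 in red, and a bar at the mean of 3. The 3 libraries of rap2.3 EL are at 1839 to 2331 FPKM, above all others.

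Of the 72 members, 15 were higher and 0 lower in rap2.3 than in WT at EL (limma on log2(FPKM + 1) over all 48 libraries, adjusted p under 0.05 by the Benjamini-Hochberg method over 21322 genes). Among all genes tested 0.155% were called in either direction and 0.0844% were higher, which is 18 genes, so the 15 members made up most of them. The median difference of the 72 members was 0.81 and that of all genes tested -0.05. By class, 5 of 13 PEP genes were higher with a class median of 1.81, 5 of 15 genes of both polymerases with 1.13, 2 of 6 NEP genes with 0.70, and 3 of 38 unassigned genes with 0.72. The NEP genes called were the ycf1 copies, which share sequence, and ycf1.2 passes the filter only through rap2.3 EL. Of the 37 members above 0 everywhere, 27 had all 3 libraries of rap2.3 EL above all 3 of WT EL and 0 had them below. Among the 19013 tested genes above 0 everywhere, 2.11% had them above and 7.44% below. Gene copies in the inverted repeat are counted separately in the 15 and in the 27. The count of 15 fell to 9 without WT EL replicate 1 and to 6 without rap2.3 EL replicate 3, and was 12 to 14 without any 1 of the other 4 libraries. With same-numbered libraries paired within each treatment it was 22: all 15 members and 7 more (rpoC1, psaB, rbcL, ndhF, ndhA, rpl33 and rrn5S.2, the last 2 mostly listed at 0). Among the 22, ycf1.2 and rrn5S.2 pass the filter only through the rap2.3 EL libraries, so their calls support nothing. Beside this, the sum of 13 root marker genes was 136 ± 28.1 FPKM in WT EL and 76.6 ± 19.9 FPKM in rap2.3 EL, and the green marker sum was 59237 ± 965 and 62471 ± 4593 FPKM (SD, n = 3). Their part in the result was not tested.

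Of the photosystem genes, psaA, psbD, psbC, psbB and psbA were called. The gene psaA (ATCG00350), a core protein of photosystem I, was at 2.26, 3.54 and 3.35 FPKM in WT EL and at 35.8, 42.3 and 63.1 FPKM in rap2.3 EL. The groups lay far apart, and the difference was 3.54 ± 0.62 on the log2(FPKM + 1) scale (SE, limma adjusted p = 0.00321). It was not called without rap2.3 EL replicate 3 (adjusted p = 0.0542). The D2 protein gene psbD (ATCG00270) was at 4.17, 6.12 and 8.83 FPKM in WT EL and 46.8, 55.2 and 80.0 FPKM in rap2.3 EL. All rap2.3 EL libraries of psbD were again above all of WT EL, by 3.08 ± 0.45 (limma adjusted p = 0.000264), and the call held in all 11 alternative settings tried. Its operon partner psbC (ATCG00280), an inner antenna protein of photosystem II, was at 6.55, 9.05 and 9.27 FPKM against 35.8, 40.8 and 54.1 FPKM, a difference of 2.26 ± 0.39 (limma adjusted p = 0.00311, and 0.0542 without rap2.3 EL replicate 3). The other inner antenna gene, psbB (ATCG00680), was at 2.3, 3.27 and 4.16 FPKM in WT EL and 15.5, 16.8 and 20.3 FPKM in rap2.3 EL, with no overlap and a difference of 2.14 ± 0.36 (limma adjusted p = 0.00165).

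The gene psbA, whose D1 protein is replaced continuously in the light, was at 44.0, 61.4 and 65.6 FPKM in WT EL and at 178, 189 and 235 FPKM in rap2.3 EL. The groups did not overlap and the difference was 1.81 ± 0.36 (limma adjusted p = 0.0172), but the call was lost without WT EL replicate 1, rap2.3 EL replicate 2 or rap2.3 EL replicate 3, with adjusted p up to 0.198. The Rubisco gene rbcL was at 13.9, 18 and 18.6 FPKM against 63.6, 60 and 82.8 FPKM. Its groups did not overlap either, but the difference of 1.97 ± 0.47 did not pass the threshold (limma adjusted p = 0.0943), and passed with the pairing (0.0199). Likewise psaB (ATCG00340), the other core protein of photosystem I, was at 4.16, 4.25 and 4.67 FPKM against 11.8, 12.1 and 14.2 FPKM, a difference of 1.35 ± 0.35 that was not called (limma adjusted p = 0.141) except with the pairing (0.0359).

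The 23S ribosomal RNA (rrn23S.1) was at 70.6, 76.0 and 86.8 FPKM in WT EL and 498, 365 and 423 FPKM in rap2.3 EL, a separation of 2.44 ± 0.39 (limma adjusted p = 0.000781). The 16S ribosomal RNA (rrn16S.1) was at 72.9, 61.4 and 84.4 FPKM against 403, 277 and 316 FPKM, a difference of 2.17 ± 0.42 (limma adjusted p = 0.0114) that was not called without WT EL replicate 1 or 2 or without rap2.3 EL replicate 1 or 3, with adjusted p up to 0.0642. Both RNAs are parts of 1 operon, and in both all 3 libraries of rap2.3 EL were above all 3 of WT EL.

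Genes of lower level showed the same direction. The ycf1 copies ycf1.1 (ATCG01000) and ycf1.2 (ATCG01130), NEP genes here, were both called. The whole ycf1 gene encodes a protein of the import machinery of the inner envelope. RefSeq holds ycf1 coding lengths of 1032 and 5361, so the copies are not equal and only the longer can encode the whole protein. They share sequence in the inverted repeat, so their calls may rest in part on the same fragments, which was not tested. The copy ycf1.2 reached 1 FPKM in 4 libraries, 3 of them rap2.3 EL, so it passed the filter only through the group where it is high and its call supports nothing; 14 members were called among those that pass without the rap2.3 EL libraries. The copy ycf1.1 was at 0.0247, 0.0965 and 0.330 FPKM in WT EL and 2.68, 3.12 and 5.45 FPKM in rap2.3 EL. Its call held in all 11 alternative settings, against 9 of 11 for ycf1.2 (limma adjusted p up to 0.131 without rap2.3 EL replicate 3). The maturase gene matK (ATCG00040), which acts in intron splicing, was at 0.391, 0.664 and 0.538 FPKM against 5.06, 3.66 and 6.64 FPKM. The NDH subunit gene ndhH (ATCG01110) was listed at 0 in WT EL replicates 1 and 3 and at 0.0535 FPKM in replicate 2, against 2.62, 2.63 and 3.10 FPKM in rap2.3 EL. The ATP synthase gene atpA rose less, by 1.28 ± 0.26 (limma adjusted p = 0.0216), and rps4 (ATCG00380), a ribosomal protein, by 1.82 ± 0.35 (limma adjusted p = 0.0114). Of 12 NDH genes 1 was called, of 22 ribosomal protein genes 1, of 6 ATP synthase genes 1, and of 6 photosystem II genes 4.

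The 4 RNA polymerase genes were not called. The gene rpoB was at 4.42, 4.43 and 3.41 FPKM in WT EL and 6.08, 4.99 and 4.51 FPKM in rap2.3 EL, 0.28 ± 0.15 higher with no call (limma adjusted p = 0.645). The next genes of its operon, rpoC1 (ATCG00180) and rpoC2 (ATCG00170), differed by 0.77 and 0.62, also without a call (limma adjusted p = 0.127 and 0.252), rpoC1 being called with the pairing (0.0359). The ATP synthase gene atpB differed by 0.49 ± 0.17 (limma adjusted p = 0.359) and accD (ATCG00500), a subunit of acetyl-CoA carboxylase for fatty acid synthesis, by 0.49, neither called. All 4 RNA polymerase genes had positive differences, with a median of 0.61, and 0 were called.

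**Figure D3:**
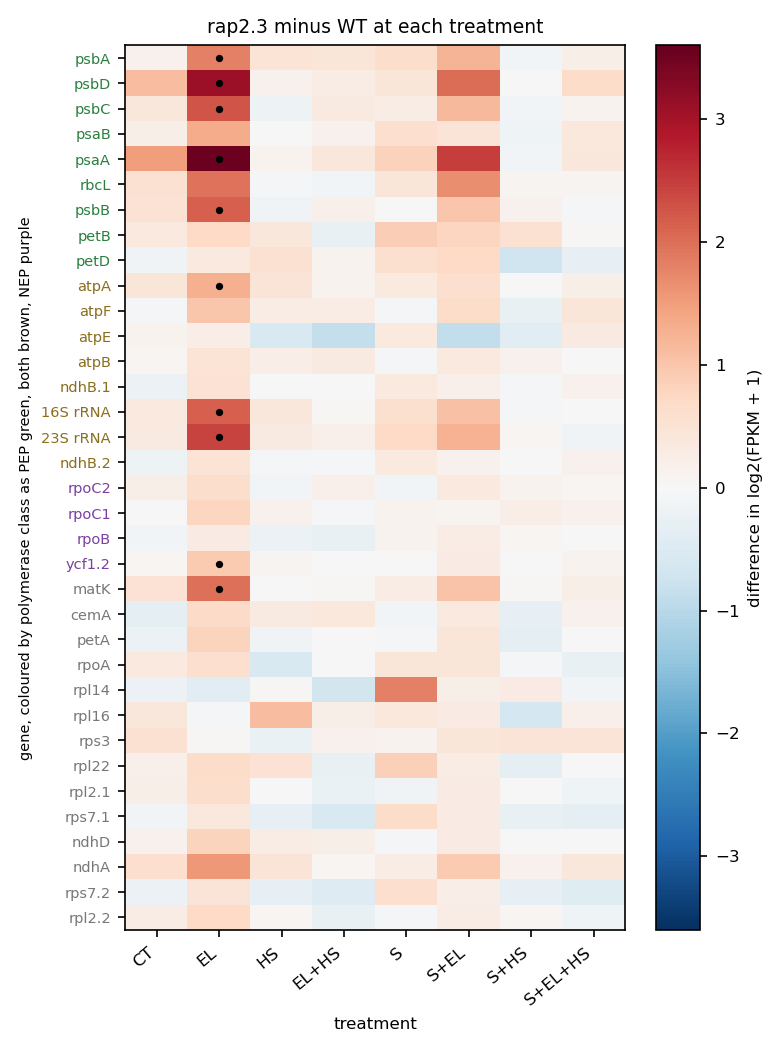
Heat map of the difference between rap2.3 and WT on the log2(FPKM + 1) scale for chloroplast genes (rows) at each of 8 treatments (columns), with black dots where the adjusted p was under 0.05. Dots appear at EL, where psaA and psbD have the largest differences at 3.54 and 3.08.

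At the other 7 treatments limma called 0 members. The shares called among all genes tested were 7.39% at EL+HS, 0.0657% at CT, 0.061% at S+EL+HS, 0.0281% at S+HS, 0.0234% at both S+EL and S, and 0.0188% at HS. The members with an unadjusted p under 0.05 numbered 25 at S+EL (34.7% of members, 2.26% of all genes), 6 at CT (8.33% and 5.14%), 5 at S+HS (6.94% and 4.26%), 3 at HS (4.17% and 4.73%), 3 at S (4.17% and 1.42%), 2 at EL+HS (2.78% and 23.7%) and 0 at S+EL+HS (9.52% of all genes). At EL they were 43 (59.7% and 8.04%). Complete separation with rap2.3 above WT was seen for 13 of 37 members at S+EL, with 1 below, for 5 at CT, with 1 below, and for 5 at S and 3 at EL+HS, with 0 below. At HS it was seen for 3, with 2 below, at S+HS for 0, with 1 below, and at S+EL+HS for 0, with 0 below. Of the 19013 tested genes above 0 in every library, rap2.3 was above WT for 3.15% at S+EL, 3.28% at CT and 6.66% at S. At EL+HS it was above for 4.14%, at EL for 2.11%, at HS for 2.98%, at S+HS for 4.68% and at S+EL+HS for 4.8%. It was below for 8.68% at S+EL, 6.9% at CT, 1.73% at S and 22.8% at EL+HS. At EL it was below for 7.44%, at HS for 4.92%, at S+HS for 5.62% and at S+EL+HS for 16.3%. Averaged over the 8 treatments, 22 members were higher and 0 lower in rap2.3, where 0.858% of all genes tested were higher. Among the 22 is ycf1.2, which passes the filter only through rap2.3 EL. The mean differences were largest for psaA at 1.15 ± 0.22 (limma adjusted p = 0.000973) and psbD at 0.96 ± 0.16 (limma adjusted p = 0.000246). With the CT and EL groups left out, a choice made after the data were seen, the count was 1, and it was 21 without the 3 libraries that stood apart.

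Read within a genotype, the same libraries gave different counts for EL against CT. These comparisons share the EL libraries with those above and add the CT libraries. In WT, 1 member was higher (ndhE, mostly listed at 0) and 2 lower, where 17.1% of all genes tested were called. In rap2.3, 17 were higher, with rpl33 and rrn5S.2 of the members mostly at 0 among them, and 0 lower, where 13.7% of all genes were called and 7.27% were higher. Of the 17, ccsA (ATCG01040), ycf1.2 and rrn5S.2 pass the filter only through the rap2.3 EL libraries, so their calls support nothing. The gene psbA was at 81.3, 56.9 and 50.8 FPKM in WT CT, overlapping its WT EL values, and at 52.8, 77.0 and 77.8 FPKM in rap2.3 CT, below all of its rap2.3 EL values, a rise of 1.53 ± 0.39 (limma adjusted p = 0.0126). For psaA the rap2.3 CT values were 5.57, 12.5 and 12.2 FPKM and the rise at EL was 2.15 ± 0.69 (limma adjusted p = 0.0431), against 3.29, 2.88 and 2.02 FPKM in WT CT. The calls for psbA and psaA in rap2.3 were both lost without rap2.3 CT replicate 1 or rap2.3 EL replicate 3, and that for psaA also without rap2.3 CT replicate 2 or 3 or rap2.3 EL replicate 2, with a pseudocount of 0.1 and with no filter on low values. The count of 17 was 6 without rap2.3 CT replicate 1 and 8 without rap2.3 EL replicate 3.

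Whether the response to EL itself differed between genotypes was tested as an interaction, and no member passed. With the EL and CT groups alone, an alternative added after the data were seen, the difference of the 2 effects was positive for 61 of 72 members with a median of 0.75, against -0.01 for all genes. It was called by limma for 0 members, with a lowest adjusted p of 1, and 29 members (40.3%, against 2.88% of all genes) had an unadjusted p under 0.05. The average interactions of genotype with light, heat and salt called 0 members each, and 0.0% of all genes tested, with 18, 28 and 8 members (25%, 38.9% and 11.1%) at an unadjusted p under 0.05, against 9.72%, 5.51% and 6.09% of all genes. A response to EL particular to rap2.3 is therefore not shown by these tests.

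The balance between genes within an operon separated the genotypes for some pairs and treatments and overlapped for others. The genes psaA and psaB lie next to each other in 1 transcription unit. The ratio of psaA FPKM to psaB FPKM had a median of 0.84 over 48 libraries, with a range of 0.404 to 4.45, and was above 1 in 17. It was 0.542, 0.833 and 0.717 in WT EL and 3.04, 3.50 and 4.45 in rap2.3 EL. In rap2.3 S+EL it was 2.53, 3.54 and 3.78, against 0.702, 0.483 and 0.609 in WT S+EL. In rap2.3 CT it was 1.24, 2.23 and 2.03, against 0.488, 0.938 and 0.488 in WT CT. The genotypes did not overlap at these 3 treatments. At HS they did overlap, with psaA at 2.48, 2.36 and 2.37 FPKM in rap2.3. A ratio near 2.8 also appeared in 2 libraries alone, WT S+EL+HS replicate 2 at 2.82 and rap2.3 S+EL+HS replicate 2 at 2.80. The libraries with high ratios were thus both genotypes' and not only those of EL. The ratio of rpoB to rpoC1 was above 1 in 48 of 48 libraries, with a median of 1.87. At EL it was lower in rap2.3, at 1.77, 1.15 and 1.19, against 1.79, 2.09 and 3.11 in WT. The ratio of rpoB to rpoC2 was 3.36 to 3.83 in rap2.3 EL and 5.92 to 8.70 in WT EL. At CT it was 4.09 to 4.57 in rap2.3 and 5.41 to 7.01 in WT. The genotypes overlapped in rpoB to rpoC1 at CT, and in both ratios at S+EL. The ratio of psbD to psbC also separated the genotypes at these 3 treatments: it was 0.638 to 0.952 in WT EL and 1.3 to 1.48 in rap2.3 EL, 0.626 to 1.02 and 1.21 to 1.66 at CT, and 0.517 to 0.742 and 1.0 to 1.50 at S+EL. Over all 48 libraries it ranged from 0.388 to 1.86. At EL the ratio of psbB to petB was 0.352 to 0.964 in WT and 1.24 to 2.95 in rap2.3, without overlap. The genotypes overlapped at EL in atpB to atpE, at 0.571 to 2.47 in WT and 1.22 to 1.91 in rap2.3. They also overlapped at EL in cemA to petA, at 1.23 to 2.15 in WT and 1.46 to 1.65 in rap2.3.

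**Figure D4:**
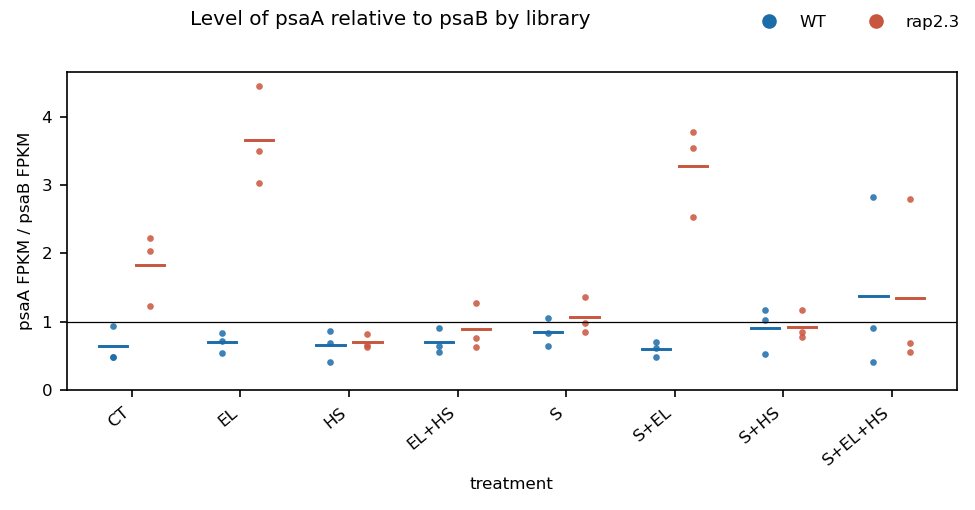
Ratio of psaA FPKM to psaB FPKM by treatment, with 1 point per library, WT in blue, rap2.3 in red, bars at the mean of 3 and a line at 1. The rap2.3 libraries at EL and S+EL lie at 2.53 to 4.45, and WT S+EL+HS replicate 2 at 2.82 stands above the other WT libraries.

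The deviation of the 3 libraries that stood apart from the other replicates correlated, across the 37 genes, with the EL difference between genotypes at Pearson r = 0.64 for WT S+EL+HS replicate 2, 0.69 for rap2.3 S+EL replicate 3 and 0.63 for rap2.3 S+EL+HS replicate 2 (Spearman rho 0.60, 0.68 and 0.46). This is a description across genes, which are not independent replicates, and the genes share the library. Such correlations were not computed for the remaining libraries. The gene rrn16S.1, with an EL difference of 2.17, deviated by only 0.15 in WT S+EL+HS replicate 2 and 0.13 in rap2.3 S+EL+HS replicate 2. For rrn23S.1 the deviations were 0.45 and 0.79, near the medians of these libraries, 0.41 and 0.85. For psbA they were 0.40 and 1.50, and for psbB 0.51 and 2.31. In psaA the rap2.3 S+EL+HS libraries were at 1.24, 36.5 and 2.41 FPKM and the WT S+EL+HS libraries at 2.11, 17.3 and 1.13 FPKM. So in rap2.3 1 library of 3, at 36.5 FPKM, was in the range seen at EL in rap2.3. In WT 1 library of 3, at 17.3 FPKM, was below that range. The remaining S+EL+HS libraries of both genotypes were at 1.13 to 2.41 FPKM. The part of such differences between libraries of 1 group in the EL result was not tested.

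Under salt, more members were lower than higher. Averaged over light, heat and genotype (24 libraries with salt against 24 without), 26 members were lower and 5 higher, where 16.2% of all genes tested were lower and 46.8% higher. The median of the members was -0.23 and that of all genes 0.12. Of the PEP genes, 8 of 13 were lower and 0 higher, of genes of both polymerases 7 of 15 and 0, of NEP genes 1 of 6 with 2 higher, and of unassigned genes 10 of 38 with 3 higher. Photosystem II had 4 of 6 genes lower, cytochrome b6f 3 of 3, the ATP synthase 3 of 6, and ribosomal RNA 4 of 5. Scaling by median-of-ratios size factors shifted all genes by -0.16 in this contrast and gave 31 lower and 3 higher. The rpl23 copies rpl23.1 and rpl23.2, lower here, are mostly listed at 0. The gene ccsA, also lower here, passes the filter only through rap2.3 EL, a group without salt, so its call supports nothing. Without the 3 libraries that stood apart 34 members were lower and 4 higher. With the CT and EL groups left out, salt is compared only in heated seedlings, and the count was 14 members.

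The largest salt effect was on psbA, at -1.18 ± 0.13 (limma adjusted p = 5.37e-10). In WT, psbA was at 16.7, 14 and 32.1 FPKM under S, all below the CT values of 50.8 to 81.3 FPKM, and fell by 1.60 ± 0.30 (limma adjusted p = 0.000935). In rap2.3 it was at 29.5, 46.0 and 21.3 FPKM under S, also below all CT values, and fell by 1.12 ± 0.39 (limma adjusted p = 0.041), a call lost without rap2.3 S replicate 1 or 3 or rap2.3 CT replicate 2 or 3 (adjusted p up to 0.16). The direction was the same in both genotypes, and the interaction of genotype with salt was called for 0 members.

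Next came psbD at -1.0 ± 0.16 (limma adjusted p = 1.27e-06) and psbC at -0.86 ± 0.14 (limma adjusted p = 1.78e-06). In WT under S psbD was at 2.37, 0.677 and 3.47 FPKM, against 6.93, 6.00 and 6.14 FPKM under CT, and in rap2.3 at 2.34, 3.16 and 3.53 FPKM against 10.4, 18.3 and 17.2 FPKM. The CT and S libraries of psbD overlapped in neither genotype. Without the CT and EL groups, that is in heated seedlings only, the salt effects on psbD and psbC were not called (adjusted p = 0.29 and 0.15). The cytochrome b6f gene petB (ATCG00720) was lower, at -0.69 ± 0.13 (limma adjusted p = 2.04e-05) and psbB at -0.53 ± 0.13 (limma adjusted p = 0.000435). The photosystem I gene psaA showed -0.34 with no call (limma adjusted p = 0.18), and psaB was lower, at -0.45 ± 0.12 (limma adjusted p = 0.00206).

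Of the ATP synthase genes, atpB had a small spread between replicates. The levels of atpB were 11.1, 13.1 and 9.86 FPKM in WT CT and 6.98, 6.11 and 6.80 FPKM in WT S, and 10.1, 14 and 11.5 FPKM in rap2.3 CT and 6.71, 5.66 and 6.97 FPKM in rap2.3 S. All S libraries were below all CT libraries in both genotypes, and the average effect was -0.68 ± 0.06 (limma adjusted p = 5.61e-12). Its operon partner atpE (ATCG00470) was lower, at -0.83 ± 0.20 (limma adjusted p = 0.000361) with a wider spread, from 3.90 to 19.3 FPKM in WT CT alone. The envelope protein gene cemA (ATCG00530) was lower, at -0.59 ± 0.10 (limma adjusted p = 4.65e-06), and all 4 measured genes of its operon were lower.

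The members higher in salt were rpoB, rpoC1 and the ribosomal protein genes rpl14 (ATCG00780), rpl16 and rpl22 (ATCG00810). The gene rpoC1 was higher by 0.35 ± 0.07 (limma adjusted p = 3.88e-05) and rpl16 by 0.51 ± 0.12 (limma adjusted p = 0.000397). The rise of rpoB by 0.22 ± 0.05 (limma adjusted p = 0.000403) is small beside the median of 0.12 of all genes and was not called under size factors, where it was 0.10 (adjusted p = 0.118), nor was rpl22 (adjusted p = 0.15, and 0.0631 without the 3 libraries that stood apart). The third gene of the operon, rpoC2, did not pass, at 0.01. Beside these results, the root marker sum was 68.7 to 72.4 FPKM in WT CT and 164 to 262 FPKM in WT S. In rap2.3 it was 52.9 to 94.6 FPKM at CT and 161 to 252 FPKM at S. The green marker sum was 77436 ± 2711 FPKM in WT CT and 66560 ± 6693 FPKM in WT S. In rap2.3 the green marker sum was 79728 ± 4887 FPKM at CT and 62128 ± 2706 FPKM at S (SD, n = 3 each). Their part in the salt effect was not tested.

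In WT under S alone 8 members were lower and 0 higher (18.3% of all genes called), 5 of them PEP genes, and in rap2.3 5 were lower and 2 higher (25.6% of all genes). The WT count was 5 without WT CT replicate 1 and 3 without WT S replicate 2, and the rap2.3 count was 4 without S replicate 1, 3 without S replicate 2 and 3 without CT replicate 2. Both members higher in rap2.3 S, rpl14 and clpP (ATCG00670), a subunit of the Clp protease, lost their call when 1 of several libraries was left out. The share of members called was below that of all genes in each of these comparisons.

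Heat lowered the polymerase genes. Averaged over light, salt and genotype, 24 members were lower and 1 higher, where 39.6% of all genes tested were lower and 22% higher, so the share of members lower was below that of all genes. The member called higher, psbK, and 1 of those called lower, rrn5S.2, are mostly listed at 0, and rrn5S.2 passes the filter only through rap2.3 EL. Without the 3 libraries that stood apart neither was called (adjusted p = 0.0515 and 0.0723), and 30 members were lower and 0 higher. All 4 polymerase genes were lower, as were the 4 copies of the 16S and 23S ribosomal RNA genes and 5 of 12 NDH genes. The gene rpoB was lower, at -0.73 ± 0.05 (limma adjusted p = 1.31e-14), rpoC1 at -0.54 ± 0.07 (limma adjusted p = 1.81e-08), rpoC2 at -0.53 ± 0.06 (limma adjusted p = 6.39e-09), and rpoA (ATCG00740) at -0.27 ± 0.12 (limma adjusted p = 0.0439). The calls for rpoB, rpoC1 and rpoC2 held in every alternative, including that without the CT and EL groups.

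For rpoB the values were 6.15, 6.14 and 7.48 FPKM in WT CT and 3.74, 3.31 and 3.58 FPKM in WT HS, and 6.04, 6.61 and 5.63 FPKM in rap2.3 CT and 3.23, 2.81 and 2.70 FPKM in rap2.3 HS. No library at HS reached the CT range in either genotype. On the log2(FPKM + 1) scale it fell by 0.74 ± 0.17 in WT (limma adjusted p = 0.00204) and fell by 0.86 ± 0.14 in rap2.3 (limma adjusted p = 9.14e-05). With light added, rpoB was at 3.14, 3.51 and 2.17 FPKM in WT EL+HS and 2.41, 1.98 and 2.28 FPKM in rap2.3 EL+HS, again below all CT libraries. With salt added it was at 3.72, 3.84 and 3.45 FPKM in WT S+HS and 4.11, 3.69 and 3.97 FPKM in rap2.3 S+HS. The sum of the 4 NEP genes rpoB, rpoC1, rpoC2 and ycf1.2 was 10.8 ± 1.0 FPKM in WT CT and 5.6 ± 0.7 in WT HS. In WT S it was 12.2 ± 1.3 FPKM. In rap2.3 it was 10.7 ± 0.5 FPKM at CT, 5.2 ± 0.3 at HS and 13.1 ± 0.7 at S (SD, n = 3 each).

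Several photosynthesis genes called lower with heat were not called without the CT and EL groups, where heat is compared only in salt-grown seedlings. The gene psaA was lower, at -0.75 ± 0.22 (limma adjusted p = 0.00352), but this call was lost without the CT and EL groups (adjusted p = 0.65). Effects of -0.28 to -0.40 were called for rbcL, psbB, psbC, psbD, petB and psaB, with limma adjusted p from 0.0197 to 0.0486. Without the CT and EL groups, rbcL, psbB, psbC and psbD changed sign, at 0.051, 0.024, 0.15 and 0.33, none of them called. No call was made for psbA at -0.21 (limma adjusted p = 0.163) or for atpB at -0.13 (limma adjusted p = 0.0554). The count of members called was 16 under size factors, against 25, and 4 without the CT and EL groups. Beside the heat effect, 15 mitochondrial genes summed to 41.1 to 56.9 FPKM in WT CT, 128 to 229 FPKM in WT HS and 289 to 340 FPKM in WT EL+HS, above WT CT in all of these libraries. How this bears on the chloroplast values was not tested.

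**Figure D5:**
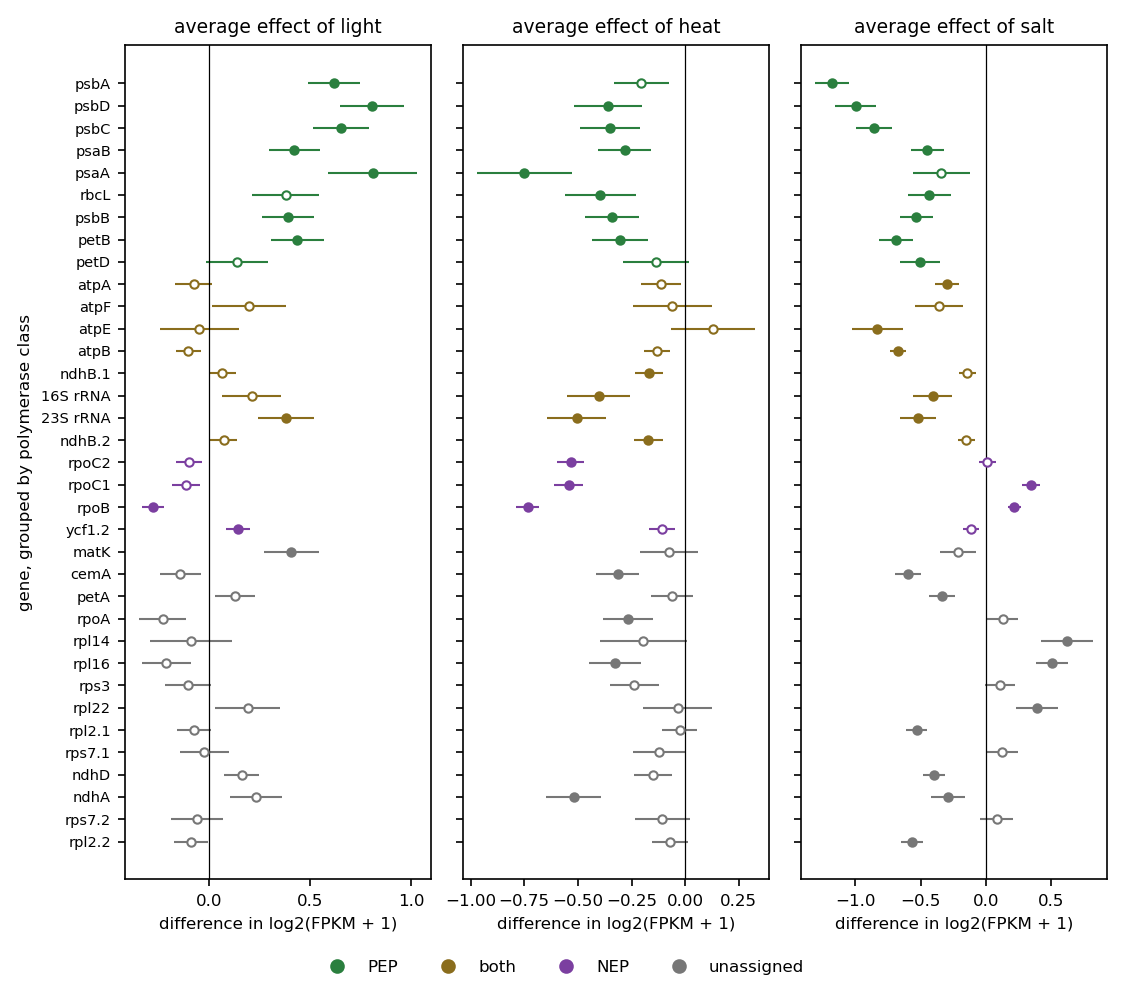
Average effects of light, heat and salt on the log2(FPKM + 1) scale with standard errors for 35 chloroplast genes above 0 in every library (1 copy each of the 16S and 23S rRNA genes), 1 row per gene, filled where the adjusted p was under 0.05. The salt effect on psbA (-1.18) and the heat effect on rpoB (-0.73) stand out, and light has effects of both signs.

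Light as an average over heat, salt and genotype raised 18 members and lowered 2, where 17.3% of all genes tested were higher and 34.1% lower. Of the PEP genes, 7 of 13 were higher, of genes of both polymerases 3 of 15, of NEP genes 3 of 6 with 1 lower, and of unassigned genes 5 of 38 with 1 lower. The gene psaA was higher by 0.81 ± 0.22 (limma adjusted p = 0.00239), psbD by 0.80 ± 0.16 (limma adjusted p = 6.3e-05), psbC by 0.65 ± 0.14 (limma adjusted p = 0.000184) and psbA by 0.62 ± 0.13 (limma adjusted p = 0.000125). The rap2.3 EL libraries are part of this average, and rpl33, among the members higher, is mostly listed at 0. Also among the members higher are ccsA and ycf1.2, which pass the filter only through rap2.3 EL, so their calls support nothing. Without the 3 libraries that stood apart 13 members were higher and 7 lower, and the 23S ribosomal RNA was not called (adjusted p = 0.0862). Without the CT and EL groups, so without the pair of EL and CT, 11 members were called. The members lower in light were rpoB, at -0.28 ± 0.05 (limma adjusted p = 3.31e-05), and rps2 (ATCG00160), a ribosomal protein, at -0.33 ± 0.10 (limma adjusted p = 0.00559). In WT at EL, rpoB was at 4.42, 4.43 and 3.41 FPKM, below all CT values, and fell by 0.58 ± 0.17 (limma adjusted p = 0.0195), a call lost without WT CT replicate 3 or WT EL replicate 3.

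The combined treatments showed both patterns side by side. In WT, 7 members were lower at EL+HS (30.7% of all genes called), 7 at S+EL (35.1%), 11 at S+HS with 1 higher (43.8%) and 5 at S+EL+HS (38.9%), and 4 were lower at HS alone (30%). In rap2.3 the counts were 6 lower at EL+HS (40.5%), 1 higher at S+EL (33.7%), 14 lower at S+HS (41.6%), 6 lower and 1 higher, the mostly 0 rpl33, at S+EL+HS (41.3%), and 3 lower at HS (28.8%). All of these shares of members were below those of all genes. The gene atpB was called lower in WT at S, S+EL, S+HS, S+EL+HS and EL+HS, and psbA at S, S+EL and S+HS. At S+HS psbA fell by 1.31 ± 0.30 in WT (limma adjusted p = 0.00139) and by 1.54 ± 0.39 in rap2.3 (limma adjusted p = 0.00378). At S+EL in rap2.3, where psbA was at 27.7, 50.6 and 89.9 FPKM, it was not called.

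Single libraries set some of these counts. The WT count at S+EL was 4 without WT S+EL replicate 3, and that at S+EL+HS was 8 without WT S+EL+HS replicate 2. In rap2.3 the count at EL+HS was 3 without CT replicate 3, and that at S+EL was 0 without S+EL replicate 2 or without CT replicate 3. The rap2.3 count of 14 at S+HS was 4 without S+HS replicate 2, 9 without S+HS replicate 3, 6 without CT replicate 2 and 7 without CT replicate 3. The rap2.3 count of 7 at S+EL+HS was 20 without S+EL+HS replicate 2, 4 without CT replicate 2, and 3 without either S+EL+HS replicate 1 or CT replicate 3. With all 3 libraries that stood apart left out, 22 members were lower and 1 higher at S+EL+HS in rap2.3.

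Nuclear genes of plastid transcription and RNA handling, 29 in all, were also tested. At EL 0 of 29 were called between genotypes, with a median of 0.04, where 0.155% of all genes were called. The sigma factor gene SIG5 (AT5G24120), known to direct PEP to the blue-light promoter of psbD, was at 151 ± 37.2 FPKM in rap2.3 EL and 142 ± 39.6 FPKM in WT EL (SD, n = 3). SIG5 was higher with light by 1.31 ± 0.07 (limma adjusted p = 5.61e-17) and lower with heat, at -1.32 ± 0.07 (limma adjusted p = 1.24e-17). SIG3 (AT3G53920) was at 36.2 ± 4.13 FPKM in rap2.3 EL and 33.0 ± 4.1 FPKM in WT EL, higher with light by 0.32 ± 0.04 and lower with heat, at -0.35 ± 0.04, and with salt, at -0.19 ± 0.04. The nuclear polymerase gene RPOTp (AT2G24120) was higher with heat by 0.70 ± 0.04 (limma adjusted p = 1.8e-18), while rpoB, rpoC1 and rpoC2, whose operon NEP reads, were lower. Over the list, 6 genes were higher and 17 lower with light (17.3% and 34.1% of all genes), 4 and 19 with heat (22% and 39.6%), and 10 and 13 with salt (46.8% and 16.2%).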

How the data were processed

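The authors deposited 1 table of FPKM values per genotype, per the file headers, made with HISAT2 and Cufflinks on TAIR10 per the submitters' processing notes; versions, annotation and use of strand are not given in the sources used here. Overlapping, antisense and inverted-repeat genes are therefore uncertain. Both tables hold the same 32824 identifiers (2 on more than 1 row, summed), and all columns were mapped to samples by title and treatment label. The chloroplast identifiers carry no names in the tables. RefSeq notes name 6 members. Fragment numbers were recovered by fitting each library's FPKM steps over 1268 nuclear genes, where 89.2% to 98.8% of values up to 10 fragments were whole within 0.1; this gave 34 members whose own RefSeq plastid coding length matched best among 40 lengths tried, 6 of which share a length with another gene. In all 37 members are named from notes or match, and 35 from the usual TAIR naming alone. The match is a check, and no counts were tested. No sequences or coordinates are given.

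The filter kept a gene when 3 or more of the 48 libraries reached 1 FPKM. Copies of a gene in the inverted repeat were tested and counted as separate members. Linear models were fitted to log2(FPKM + 1) by lmFit and eBayes (trend on) of the R 4.3.3 package limma 3.58.1, 1 mean per group, over the 24 libraries of a genotype for responses and over all 48 for genotype, average and interaction contrasts. Differences on this scale understate changes of low genes. Benjamini-Hochberg adjustment ran over all 21322 genes, and an adjusted p under 0.05 was called. Polymerase classes and operons follow textbook knowledge. Genes named were a set known from plastid transcription, plus per contrast up to 3 largest increases and 3 largest decreases with mean FPKM of at least 5; matK, ndhH, ndhA, rps4, atpA, atpE, rps2, rpoA, rrn5S.2, psbK, rpl33 and cemA were also described after their values were seen. Members and lists were chosen with earlier results of these data known. Alternatives were a pseudocount of 0.1, no filter, size factors, the replicate number as a block, leaving out each library, and 4 added after the data were seen. At EL, deviations from the group mean correlated across genes between WT and rap2.3 libraries of equal number (0.52, 0.103 and 0.414), and the number was treated as a pairing there, but not at the other treatments or between CT and stress; the EL values given are unpaired, with the paired value where a call differs. The scripts were tested on simulated data. Figures were drawn with matplotlib 3.10.9.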

Additional observations from a re-analysis of the deposited data

Results flagged for a closer look

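The gene petA (ATCG00540), which encodes cytochrome f of the cytochrome b6f complex, had EL libraries on opposite sides of the CT libraries in the genotypes, with no call for EL against CT in either (limma adjusted p = 0.384 in WT and 0.134 in rap2.3). In WT it was at 3.76, 3.16 and 3.29 FPKM under CT and at 3.01, 2.34 and 2.3 FPKM under EL. In the libraries labelled rap2.3 it was at 1.75, 3.46 and 3.38 FPKM under CT and at 5.86, 3.87 and 6.13 FPKM under EL. Every EL library of WT was below all CT libraries, and every EL library of rap2.3 was above all of its CT libraries. The effect in rap2.3 minus that in WT was 1.03 on the log2(FPKM + 1) scale, and limma's test of this difference did not call it (adjusted p of 1 over all genes).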

How the results depend on the processing

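Counts of members called changed by more than 1.5 times under some alternatives, and except where said the cause was not tested. Without the filter on low values, which tests more genes, the counts were 5 for WT S (8 as reported), 4 for rap2.3 S (7), 0 for rap2.3 S+EL (1), 8 for rap2.3 S+HS (14) and 4 for rap2.3 S+EL+HS (7). With size factors they were 11 for WT S+EL (7), 11 for rap2.3 S (7), 0 for rap2.3 S+EL (1) and 16 for heat (25). Without the 3 libraries that stood apart they were 8 for WT S+EL+HS (5), 2 for rap2.3 S+EL (1), 23 for rap2.3 S+EL+HS (7), 1 between genotypes at S+EL (0) and 3 for genotype by heat (0). Without the CT and EL groups they were 1 for the mean genotype difference (22), 11 for light (20), 4 for heat (25) and 14 for salt (31). Leaving out these groups leaves fewer samples and also changes the contrasts. Heat is then compared only in salt-grown seedlings, salt only in heated seedlings, and light without the pair of EL and CT. Under that setting 5 effects reversed: rbcL heat 0.051, psbB heat 0.024, psbC heat 0.15, psbD heat 0.33 and rbcL salt 0.015. With 1 library left out, counts ranged from 3 to 9 for WT S, 4 to 8 for WT S+EL, 5 to 8 for WT S+EL+HS, 6 to 18 for rap2.3 EL, 3 to 7 for rap2.3 EL+HS, 3 to 7 for rap2.3 S, 0 to 1 for rap2.3 S+EL, 4 to 18 for rap2.3 S+HS, 3 to 20 for rap2.3 S+EL+HS, 6 to 14 between genotypes at EL, 0 to 1 at each of EL+HS, S+EL and S+HS, and 0 to 4 for genotype by heat. With the replicate number as a block the EL genotype count was 15, and with a block within each treatment 22; that nested block gave 1 at EL+HS and 2 at S+EL, where the numbers do not pair the libraries. Of 694 named gene values under settings other than leaving out 1 library, 594 kept direction and side of the threshold, 95 kept only direction and 5 reversed. Low fragment numbers limit members under 1 FPKM.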
